A study of Homo sapiens with 12 samples.

Results

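This account covers 6 genes of the tripartite motif (TRIM) family with antiviral roles, TRIM5, TRIM22, TRIM14, TRIM21, TRIM25 and TRIM38, in sequencing of RNA bound by J2, an antibody against double-stranded RNA. The genes were taken by name, and their values are the reads of every region of the deposited count table that lay in the gene's body on the gene's strand, 511 regions of 5254113 in all. The cells were NCI-H1944, a human lung adenocarcinoma line, with a wild-type genotype and the label SCR or with an IFNAR1 knockout genotype and the label IFNAR1sg. IFNAR1 is a chain of the receptor for type I interferons. Each genotype was given DMSO or the MPS1 inhibitor BAY-1217389 (MPS1i, 100 nM) for 48 h. The drug was then removed and the cells were kept for 24 h, with recombinant interferon beta (IFNb, 5 ng/ml) in that time for the IFNb groups, which had DMSO in the first 48 h. All 6 groups held 2 libraries, 12 in all. The labels do not say whether the IFNAR1sg cells were a clone or a pool, or whether the 2 libraries of a group came from separate cultures, so the p-values below measure only the spread between these libraries. Input RNA was not analysed here, so more of a transcript and a larger double-stranded share of it cannot be told apart, and neither can fewer cells and less RNA per cell.

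TRIM proteins carry a RING domain, B-boxes and a coiled coil, and most of them are ubiquitin ligases. TRIM5 recognises retroviral capsids in the cytoplasm, and TRIM22, its neighbour on chromosome 11, restricts the transcription of several viruses. TRIM25 attaches ubiquitin chains in the RIG-I pathway that senses viral RNA and is a cofactor of the zinc finger antiviral protein. TRIM14, which lacks the RING domain, acts at mitochondria with the adaptor MAVS. TRIM38 restrains signalling from Toll-like receptors, and TRIM21 is a cytosolic receptor for antibody bound to virus. Interferons act through transcription factors that bind the interferon-stimulated response element (ISRE) or the gamma-activated site (GAS) near the genes they induce.

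Of the 6 genes, 5 had a promoter window in the RefSeq table of build GRCh38.p14, which runs from 250 bases before the annotated start over 300 bases in all. TRIM22 had no entry, and the RefSeq start of TRIM5 lies inside the gene body used below. The ISRE core, searched on both strands as GAAA, 2 bases of any kind and GAAA again, was in the windows of TRIM5, TRIM14 and TRIM21, and in 3.57% of the 35116 windows in the table. The stretches that hold it are shown because they differ among genes that responded together. They are written 5′ to 3′ on the gene's strand with the core in capitals.
TRIM5, chr11:5685082-5685111, minus strand: atagtttatcTTTCACTTTCctgccctgag
TRIM14, chr9:98119229-98119258, minus strand: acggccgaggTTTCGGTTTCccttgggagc
TRIM21, chr11:4393663-4393692, minus strand: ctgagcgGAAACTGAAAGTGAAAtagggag
The core began 27 bases before the start in TRIM5 and 26 bases before it in TRIM14. In TRIM21 it occurred in 2 overlapping copies that began 17 and 23 bases after the start. The windows of TRIM25 and TRIM38 held no such core, and none of the 5 held the GAS core, TTC and GAA with 3 bases of any kind between them, which was in 7.66% of all windows. A match describes these letters only.

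Library totals ran from 3739443 to 7430687 reads. Levels are given as CPM, read counts divided by the library size after scaling by trimmed means (TMM). In the IFNAR1 region with the most reads, the SCR libraries held 8.65 to 11.7 CPM and the IFNAR1sg libraries 1.64 to 3.33 CPM, without overlap. Both SCR IFNb libraries stood apart: 295367 and 296843 regions had a read there against 566704 to 935974 in the others, and the median gene changed by -0.57 (log2) between SCR IFNb and SCR DMSO. Their share of reads in regions that touch an exon was 47.9% and 49.6%, against 33.2% to 39.7% elsewhere. Of 7 epithelial markers 5 had reads, with KRT8 the most abundant, KRT19 at 0 and NKX2-1 without a region, and their sum was 2111 to 5265 CPM. Leukocyte markers (6 of 10 with reads) summed to 4.91 to 8.03 CPM in the MPS1i libraries and 0.667 to 2.23 CPM in the others. Most of their reads were of CD8A (78 in all libraries), CD4 (73) and CD14 (22). PTPRC had 9, and CD3D and MS4A1 were among those at 0. Fibroblast markers (6 of 7 with reads, from COL1A1 with 6 in all to PDGFRB with 27 and PDGFRA with 30) summed to 0.927 to 5.65 CPM in the MPS1i libraries and 0.158 to 1.505 CPM in the others. The leukocyte sum was thus higher in every MPS1i library, whereas of the fibroblast sums only those of IFNAR1sg MPS1i (4.75 to 5.65 CPM) stood apart, and their part in the results on MPS1i was not tested.

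The regions left the genes' own exons almost uncovered. Regions on a gene's strand held between 0 and 4 of its exon bases, whereas regions on the other strand covered 81.5 to 99.4% of them. A gene value below therefore comes from outside the gene's annotated exons. It is the sum over regions that lie on the strand of that gene alone and share no exon base, unless said otherwise. In TRIM14 and TRIM22 the region with the most reads begins just past the 3′ end of an annotated transcript. In TRIM5 that region lies before the RefSeq start.

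All 6 genes rose with IFNb in SCR cells, from 2.99-fold in TRIM25 to 53.2-fold in TRIM5, and all 6 rose with MPS1i in SCR cells, from 3.37-fold in TRIM25 to 17.8-fold in TRIM22. They were called higher by edgeR's quasi-likelihood test at a Benjamini-Hochberg adjusted p under 0.05 over 14642 gene sums. Of all gene sums, 7.92% were called higher with IFNb and 22.2% with MPS1i in SCR. The background with IFNb depended on the regions summed. In sums of every own-strand region all 6 were called higher too, while 3151 of 17511 such sums were called higher and 27.8% lower with IFNb (45.8% in either direction), against 1160 of 14642 higher and 38.5% lower in the gene sums. With MPS1i 24.4% were called higher. In IFNAR1sg cells all 6 rose with MPS1i, where the share over all genes was 26.8%, and 4 rose with IFNb (TRIM5, TRIM22, TRIM14 and TRIM25), where it was 0.642%. Without regions opposite a gene on the other strand, 5 genes could be measured and the last count was 2 (TRIM14 and TRIM25), against 0.476%, and TRIM5 changed by 0.50 ± 0.27 (adjusted p = 0.543). The median change of the 6 genes was 3.72 (log2) for IFNb and 2.87 for MPS1i in SCR, and 1.00 and 1.81 in IFNAR1sg. Over all genes the medians were -0.57 and 0.09 in SCR and -0.06 and 0.18 in IFNAR1sg. Between IFNAR1sg and SCR in DMSO, 0 of the 6 were called by edgeR, with none at an unadjusted p under 0.05 and 0 called by DESeq2 either; 0.0751% of all gene sums were called there in either direction. Without regions opposite a gene, TRIM5 was 1.04 ± 0.33 higher (log2) in IFNAR1sg than in SCR DMSO, which edgeR did not call (unadjusted p = 0.00184, adjusted p = 0.406), and this DMSO level enters its IFNb and MPS1i values in that sum. The contrasts with DMSO within a genotype share their DMSO libraries.

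**Figure D1:**
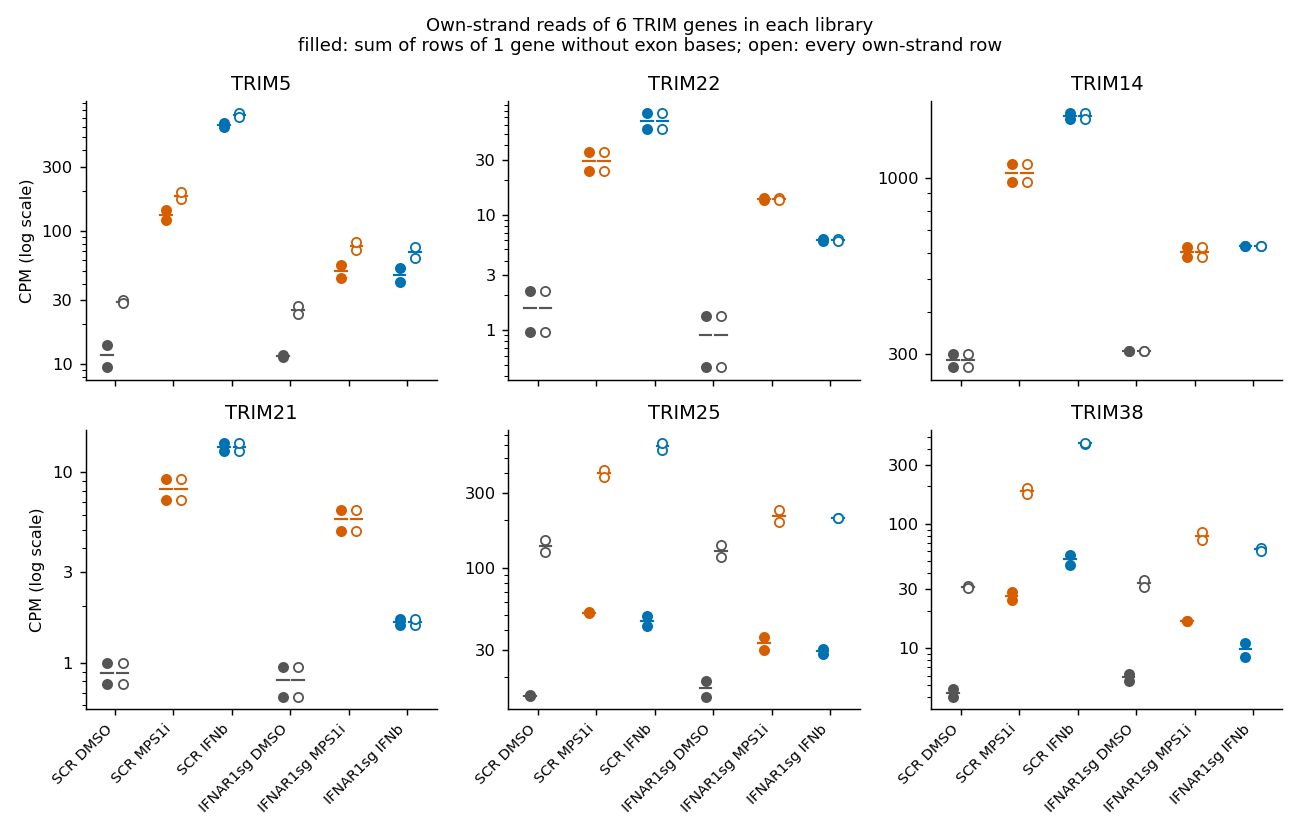
Reads of each gene in CPM (log axis) in the 12 libraries, grouped by genotype and treatment; points are libraries and short lines group means, with filled points for regions of 1 gene without exon bases and open points for every region on the gene's strand. Both SCR IFNb libraries and both SCR MPS1i libraries lie above all 4 DMSO libraries for every gene, in both sums.

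TRIM5 had the largest change with IFNb in the gene sums, a rank it did not hold in every sum. Summed over every own-strand region it changed by 4.64 ± 0.13 in SCR, below TRIM22 at 5.32 ± 0.30, and without regions opposite a gene by 3.53 ± 0.28, next to TRIM21 at 3.89 ± 0.48 and TRIM38 at 3.55 ± 0.25. The gene (chr11:5663557-5938619, minus strand) was at 9.50 and 13.9 CPM in the SCR DMSO libraries, 121 and 142 with MPS1i and 641 and 596 with IFNb. In IFNAR1sg it was at 11.3 and 11.8 CPM with DMSO, 44.5 and 55.8 with MPS1i and 52.3 and 41.1 with IFNb. The DMSO libraries of both genotypes were the lowest, the treated IFNAR1sg libraries lay between, and the 2 treated SCR groups overlapped with no other group. The log2 fold change was 5.73 ± 0.15 (SE, n = 2 libraries a group, adjusted p = 1.20e-77) for IFNb and 3.51 ± 0.15 (adjusted p = 2.48e-48) for MPS1i in SCR. In IFNAR1sg it was 2.01 ± 0.16 for IFNb and 2.11 ± 0.16 for MPS1i, so the 2 treatments gave changes within each other's error there. The rise was larger in SCR than in IFNAR1sg for both treatments, by 3.72 ± 0.24 (adjusted p = 4.43e-30) for IFNb and 1.39 ± 0.23 (adjusted p = 1.06e-05) for MPS1i.

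Most of that TRIM5 signal lay opposite TRIM22. The body of TRIM22 (chr11:5689689-5737089, plus strand), 47401 bases, lies wholly inside that of TRIM5 on the other strand. A single region of the TRIM5 strand, chr11:5689433-5716546, ran through 4869 exon bases of TRIM22 and held 5026 reads, 64.9% of all TRIM5 reads. On this strand the region lies wholly before the RefSeq start of TRIM5, which falls in the promoter window chr11:5685025-5685324. It counts as TRIM5 because the annotated body used here runs on to exons farther upstream. It was at 5.83 and 10.8 CPM in SCR DMSO, 101 and 125 with MPS1i and 597 and 561 with IFNb, and in IFNAR1sg at 5.34 and 3.82 with DMSO, 28.4 and 44.3 with MPS1i and 43.3 and 30.2 with IFNb. RNA of a TRIM5 intron, RNA made antisense to TRIM22 and TRIM22 messenger RNA counted on the wrong strand cannot be told apart in this region.

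The TRIM5 regions were therefore split by what lies on the other strand. Regions opposite TRIM22 exons, 3 in number, rose by 6.14 ± 0.17 with IFNb and 3.79 ± 0.17 with MPS1i in SCR, and by 3.04 ± 0.21 and 3.02 ± 0.21 in IFNAR1sg. The 154 regions clear of any gene on the other strand were at 24.3 and 17.8 CPM in SCR DMSO, 70.8 and 68.9 with MPS1i and 159 and 155 with IFNb. In IFNAR1sg they were at 21.8 and 20.1 CPM with DMSO, 41.7 and 35.7 with MPS1i and 32.2 and 31.9 with IFNb. Most of their reads lay in regions shared with another gene of the same strand, 1963 reads in all, which the gene sum leaves out. Clear regions of TRIM5 alone were at 3.67 and 3.10 CPM in SCR DMSO and 44.2 and 35.0 with IFNb. With IFNb in IFNAR1sg those regions of TRIM5 alone changed by 0.50, without a call. The 154 regions together changed by 2.88 ± 0.15 (adjusted p = 3.95e-39) for IFNb and 1.72 ± 0.16 (adjusted p = 8.24e-19) for MPS1i in SCR. In IFNAR1sg they changed by 0.62 ± 0.16 (adjusted p = 0.0222) and 0.89 ± 0.16 (adjusted p = 1.43e-06). The clear part thus rose in all 4 contrasts with values smaller than those of the regions opposite TRIM22 in each. The difference between the 2 parts was not tested. The call for IFNb in IFNAR1sg was lost without IFNAR1sg DMSO library 2 (0.59, adjusted p = 0.364), IFNAR1sg IFNb library 1 (0.64, adjusted p = 0.119) or IFNAR1sg IFNb library 2 (0.65, adjusted p = 0.0545). Of the clear part, 1002 reads lay in a 187-base region, chr11:5667711-5667897, that shares 1 base with an exon and lies in 2 genes of its strand. Without it the clear part changed by 2.47 ± 0.18 for IFNb in SCR and by 0.49 ± 0.19 (adjusted p = 0.255) in IFNAR1sg, where the call was lost. The interaction for IFNb was 2.26 ± 0.23 (adjusted p = 4.68e-16) in the clear part and 3.10 ± 0.34 (adjusted p = 2.90e-14) opposite TRIM22. For MPS1i it was 0.83 ± 0.23 (adjusted p = 0.0294) in the clear part and 0.77 ± 0.32 (adjusted p = 0.324) opposite TRIM22. That call in the clear part was lost without SCR DMSO library 2, SCR MPS1i library 1 or 2, IFNAR1sg DMSO library 1 or 2, or IFNAR1sg MPS1i library 2 (0.62 to 0.87). Opposite TRIM22 it was made without SCR DMSO library 2 (1.24, adjusted p = 0.0202) or IFNAR1sg MPS1i library 2 (1.15, adjusted p = 0.0193).

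**Figure D2:**
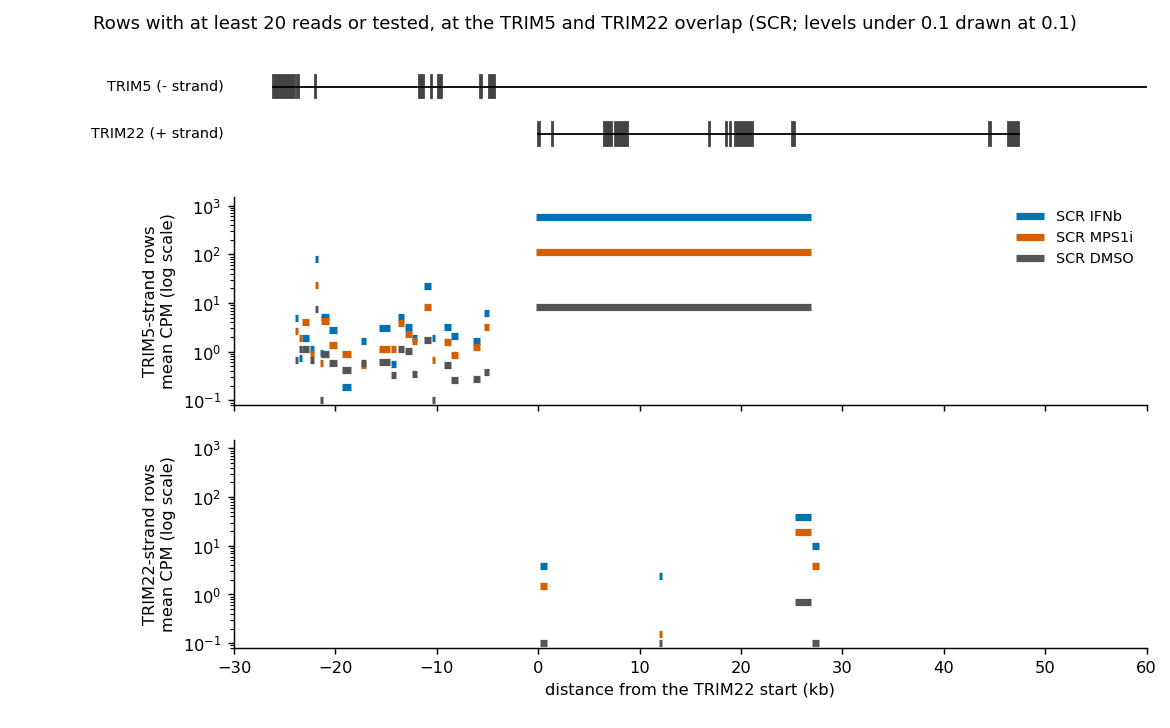
The overlap of TRIM5 (minus strand) and TRIM22 (plus strand), with distance from the TRIM22 start in kb on the horizontal axis; boxes are exons, TRIM5 runs on past the right edge, and bars are regions at their mean CPM (log axis) in the 2 libraries of each SCR group, with levels under 0.1 drawn at 0.1. The long bar of the TRIM5 strand opposite most TRIM22 exons is the highest in each group, and the TRIM22-strand regions lie between those exons.

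TRIM22 itself was measured only between its exons. All 54 of its regions lay opposite the TRIM5 body, with no TRIM5 exon, and they held 836 reads, 13 and 5 of them in the SCR DMSO libraries and 6 and 3 in those of IFNAR1sg. The level was 2.17 and 0.968 CPM in SCR DMSO, 34.9 and 24.0 with MPS1i and 75.5 and 55.3 with IFNb, and in IFNAR1sg 1.33 and 0.478 with DMSO, 13.9 and 13.4 with MPS1i and 6.16 and 5.95 with IFNb. No treated group overlapped a DMSO group, and in IFNAR1sg both MPS1i libraries lay above both IFNb libraries, the reverse of SCR. The log2 fold change was 5.32 ± 0.30 (adjusted p = 5.95e-37) for IFNb and 4.15 ± 0.32 (adjusted p = 1.84e-24) for MPS1i in SCR. In IFNAR1sg it was 2.81 ± 0.45 (adjusted p = 1.00e-06) and 3.99 ± 0.39 (adjusted p = 4.07e-17). The change with MPS1i differed between genotypes by 0.17 ± 0.75 (adjusted p = 0.971), and that with IFNb by 2.51 ± 0.73 (adjusted p = 0.00391). The latter was 1.71 (adjusted p = 0.265) without IFNAR1sg DMSO library 1, so its call rests on that library. Of the TRIM22 reads, 60.2% lay in chr11:5715052-5716546, a stretch named L1PA8, a LINE-1 subfamily, that begins 9 bases past the 3′ end of an annotated TRIM22 transcript. That region went from 0.833 and 0.581 CPM in SCR DMSO to 46.5 and 33.1 with IFNb.

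TRIM25 had the smallest change of the 6 in SCR, except that TRIM14 without its regions opposite a gene lay level with or below it. The gene (chr17:56836387-56914080, minus strand) was at 15.2 and 15.5 CPM in SCR DMSO, 51.3 and 52.0 with MPS1i and 42.8 and 48.9 with IFNb. In IFNAR1sg it was at 19.1 and 15.1 CPM with DMSO, 36.4 and 29.8 with MPS1i and 30.5 and 28.2 with IFNb. Every treated library lay above all DMSO libraries, and the treated SCR groups lay above the treated IFNAR1sg groups. The log2 fold change was 1.58 ± 0.19 (adjusted p = 1.16e-12) for IFNb and 1.75 ± 0.18 (adjusted p = 1.33e-15) for MPS1i in SCR, and 0.79 ± 0.18 (adjusted p = 0.00408) and 0.96 ± 0.18 (adjusted p = 3.51e-06) in IFNAR1sg. The interaction was 0.79 ± 0.27 (adjusted p = 0.0146) for IFNb and 0.79 ± 0.26 (adjusted p = 0.131) for MPS1i. The call for IFNb in IFNAR1sg was lost without IFNAR1sg DMSO library 2 (0.66, adjusted p = 0.369) or IFNAR1sg IFNb library 1 (0.76, adjusted p = 0.0854). The interaction for IFNb was lost without SCR IFNb library 2 (0.68, adjusted p = 0.0780), without IFNAR1sg DMSO library 1 (0.61, adjusted p = 0.125) and without TMM scaling (0.37, adjusted p = 0.277).

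This sum leaves out most TRIM25 reads. Regions that share an exon base were left out because most barely touch the exon and were taken to hold its reads. That was not tested for this gene. Of its 14231 own-strand reads, 12480 lay in 4 regions that share an exon base, among them a region of 3 bases, chr17:56913390-56913392, with 9184 reads and 1 exon base. That region was at 102 and 78.2 CPM in SCR DMSO, 263 and 241 with MPS1i, 383 and 438 with IFNb, and in IFNAR1sg at 69.6 and 90.0 with DMSO, 139 and 123 with MPS1i and 129 and 132 with IFNb. Here the SCR IFNb libraries were the highest of all 12, whereas in the exon-free sum they were below the SCR MPS1i libraries. With every own-strand region summed, TRIM25 changed by 2.09 ± 0.12 with IFNb and 1.52 ± 0.12 with MPS1i in SCR. IFNb minus MPS1i in SCR was -0.17 ± 0.17 (adjusted p = 0.438) without and 0.57 ± 0.11 (adjusted p = 7.71e-05) with the exon-sharing regions, so the order of the 2 treatments for this gene turns with the regions summed. The interaction for MPS1i was called with them, at 0.79 ± 0.16 (adjusted p = 0.00336).

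TRIM14 had the most reads of the 6 and the highest level per kb. The gene (chr9:98069275-98119212, minus strand) was at 299 and 273 CPM in SCR DMSO, 1101 and 974 with MPS1i and 1557 and 1499.8 with IFNb. In IFNAR1sg it was at 305 and 305 CPM with DMSO, 623 and 581 with MPS1i and 626 and 629.5 with IFNb. The 2 libraries of each group lay close together and the treated IFNAR1sg libraries stood between DMSO and the treated SCR libraries. The log2 fold change was 2.42 ± 0.09 (adjusted p = 2.32e-58) for IFNb and 1.86 ± 0.09 (adjusted p = 4.35e-45) for MPS1i in SCR, and 1.04 ± 0.08 (adjusted p = 3.36e-21) and 0.98 ± 0.08 (adjusted p = 1.32e-20) in IFNAR1sg. The interactions were 1.37 ± 0.12 (adjusted p = 6.92e-20) and 0.87 ± 0.12 (adjusted p = 9.78e-09).

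These TRIM14 values rest on 1 region. chr9:98081263-98084353 held 31898 reads, 85.1% of the gene's. It begins 2 bases past the 3′ end of an annotated TRIM14 transcript and lies opposite 1134 exon bases of a gene on the plus strand. Whether some of its reads came from that gene and were counted on the wrong strand was not tested. The level of the region went from 248 and 222 CPM in SCR DMSO to 939 and 817 with MPS1i and 1403 and 1333 with IFNb. The 55 TRIM14 regions with no gene on the other strand were at 18.5 and 18.4 CPM in SCR DMSO, 53.8 and 50.1 with MPS1i and 57.2 and 53.8 with IFNb. In IFNAR1sg they were at 15.8 and 21.3 CPM with DMSO, 37.2 and 33.7 with MPS1i and 44.1 and 37.9 with IFNb. The 4 DMSO libraries were the lowest here too, and the treated groups of the 2 genotypes lay closer together. For IFNb and MPS1i in turn these regions changed by 1.59 ± 0.18 and 1.49 ± 0.17 in SCR and by 1.12 ± 0.17 and 0.91 ± 0.17 in IFNAR1sg, all called. Without the regions opposite a gene the interactions were not called, at 0.47 ± 0.25 (adjusted p = 0.141) for IFNb and 0.58 ± 0.25 (adjusted p = 0.354) for MPS1i.

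TRIM38 rose with both treatments in SCR and with MPS1i in the knockout. The gene (chr6:25962802-25991226, plus strand) was at 4.67 and 4.07 CPM in SCR DMSO, 24.4 and 28.5 with MPS1i and 46.8 and 56.4 with IFNb. In IFNAR1sg it was at 6.22 and 5.42 CPM with DMSO, 16.4 and 16.4 with MPS1i and 8.53 and 11.04 with IFNb. The SCR IFNb libraries were the highest of the 12 and both IFNAR1sg IFNb libraries lay below both IFNAR1sg MPS1i libraries. The log2 fold change was 3.55 ± 0.25 (adjusted p = 1.05e-27) for IFNb and 2.60 ± 0.26 (adjusted p = 1.49e-16) for MPS1i in SCR. In IFNAR1sg MPS1i gave 1.502 ± 0.25 (adjusted p = 2.39e-07) and IFNb gave 0.76 ± 0.27 (adjusted p = 0.194), which was not called. The interaction for IFNb was 2.80 ± 0.38 (adjusted p = 6.78e-10) and that for MPS1i 1.09 ± 0.38 (adjusted p = 0.170). As in TRIM25, most reads lay at an exon edge: chr6:25969420-25969523, 104 bases of which 1 is exonic, held 5307 of 6217 reads. It was at 26.8 and 26.1 CPM in SCR DMSO, 170.0 and 144 with MPS1i and 395 and 393 with IFNb, and in IFNAR1sg at 29.1 and 25.8 with DMSO, 69.2 and 58.1 with MPS1i and 55.7 and 49.6 with IFNb. With it in the sum, IFNb in IFNAR1sg was called at 0.92 ± 0.13 (adjusted p = 3.74e-06; 1.41% of all such sums were called higher) and the MPS1i interaction at 1.30 ± 0.18 (adjusted p = 1.13e-05).

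TRIM21 was the least deeply measured, with 242 reads in 16 regions. The gene (chr11:4384897-4393696, minus strand) had 6 and 4 reads in SCR DMSO, 30 and 33 with MPS1i and 35 and 38 with IFNb. That was 1.000 and 0.775 CPM with DMSO, 9.27 and 7.13 with MPS1i and 13.0 and 14.3 with IFNb. In IFNAR1sg it had 3 and 6 reads with DMSO (0.667 and 0.956 CPM), 28 and 39 with MPS1i (4.94 and 6.38 CPM) and 10 and 10 with IFNb (1.58 and 1.70 CPM). Both SCR treatments and MPS1i in IFNAR1sg lay far above DMSO, and IFNb in IFNAR1sg lay just above it. The log2 fold change was 3.89 ± 0.48 (adjusted p = 2.36e-12) for IFNb and 3.14 ± 0.50 (adjusted p = 3.75e-08) for MPS1i in SCR, and 2.73 ± 0.51 (adjusted p = 2.76e-06) for MPS1i and 0.96 ± 0.61 (adjusted p = 0.659) for IFNb in IFNAR1sg. The interaction was 2.94 ± 0.87 (adjusted p = 0.00427) for IFNb and 0.41 ± 0.81 (adjusted p = 0.917) for MPS1i. The interaction for IFNb was 2.61 (adjusted p = 0.104) without IFNAR1sg DMSO library 2. All reads came from regions with no gene on the other strand and no exon base.

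**Figure D3:**
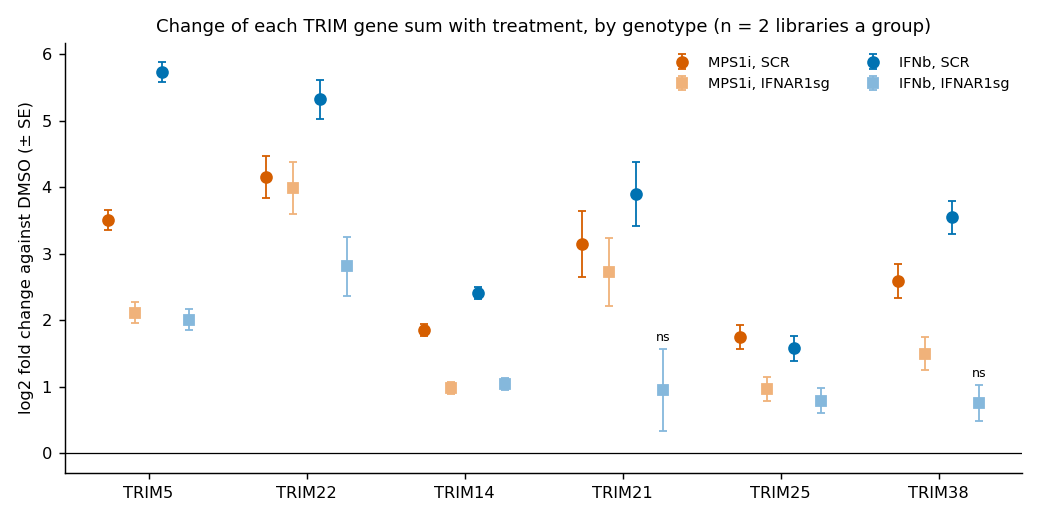
Log2 fold change against DMSO of the same genotype (vertical axis; bars are ± SE, n = 2 libraries a group) for the 6 gene sums, with circles for SCR and squares for IFNAR1sg, and ns where edgeR made no call. The IFNb circle of TRIM5 is the highest at 5.73, and the IFNb squares of TRIM21 and TRIM38 are the 2 values without a call.

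The differences between genotypes were thus called for all 6 genes with IFNb, against 4.23% of all gene sums with a larger rise in SCR, and for 2 (TRIM5 and TRIM14) with MPS1i, against 0.328%. With every own-strand region summed, the second count was 4 (TRIM25 and TRIM38 in addition), against 0.685%. Without regions opposite a gene, 5 genes were measured, since TRIM22 has no such region, and the counts were 4 for IFNb and 1 (TRIM5) for MPS1i, against 3.63% and 0.345%. For TRIM22 and TRIM21 the interval of the MPS1i difference is wide, at 0.17 ± 0.75 and 0.41 ± 0.81. The IFNb calls of TRIM21, TRIM22 and TRIM25 were lost when certain single libraries were left out, as given above. Within SCR, IFNb was called above MPS1i for 4 genes, against 3.36% of all: TRIM5 by 2.23 ± 0.12, TRIM22 by 1.17 ± 0.21, TRIM38 by 0.95 ± 0.20 and TRIM14 by 0.56 ± 0.08. Without regions opposite a gene, 2 genes were called, against 2.54%, and TRIM14 lost it (0.10 ± 0.17, adjusted p = 0.651).

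Per kb of region, TRIM14 was the highest in SCR DMSO at 7.49 (7.15 to 7.82) CPM per kb (mean and range of 2 libraries), followed by TRIM25 at 0.352 (0.348 to 0.356) and TRIM38 at 0.294 (0.274 to 0.314). TRIM21 at 0.239 (0.209 to 0.269) and TRIM5 at 0.215 (0.175 to 0.256) overlapped, and so did TRIM5 and TRIM22 at 0.149 (0.0918 to 0.205). With IFNb in SCR the order was TRIM14 at 40.0 (39.2 to 40.7), TRIM5 at 11.4 (10.96 to 11.8) and TRIM22 at 6.20 (5.24 to 7.16) CPM per kb. TRIM21 at 3.68 (3.51 to 3.85) and TRIM38 at 3.48 (3.16 to 3.80) overlapped, and TRIM25 was the lowest at 1.05 (0.982 to 1.12). In SCR MPS1i TRIM14 was at 27.1 (25.5 to 28.8), TRIM22 at 2.79 (2.27 to 3.31), TRIM5 at 2.42 (2.22 to 2.62), TRIM21 at 2.21 (1.92 to 2.50), TRIM38 at 1.78 (1.64 to 1.92) and TRIM25 at 1.19 (1.18 to 1.196) CPM per kb, where TRIM22, TRIM5 and TRIM21 overlapped in part. The order turns with the regions summed. With every own-strand region, TRIM38 at 29.8 and TRIM25 at 13.5 CPM per kb lay above TRIM5 at 11.3 in SCR IFNb, since exon-sharing regions hold most of their reads. Without regions opposite a gene, TRIM14 was at 3.27 there, below TRIM21, and TRIM5 at 1.71.

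Single regions gave the same direction. Of the 511 own-strand regions, 46 passed the filter on low counts in the fit over 89111 regions. In either direction, 32 of them were called with IFNb and 31 with MPS1i in SCR, and 8 and 16 in IFNAR1sg, each of these higher. Over all regions, 33.0% and 17.5% were called in either direction in SCR and 0.680% and 17.3% in IFNAR1sg. A region that is high only after treatment passes the filter through that treatment, so these counts describe the regions that passed. The interaction was called for 13 regions with IFNb and 2 with MPS1i, all with the larger rise in SCR, against 5.11% and 0.0516% of all regions. Within SCR 11 regions were called higher with IFNb than with MPS1i, against 5.78%.

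RNA on the strand opposite the genes rose as well. Opposite TRIM14, the region chr9:98083077-98110846 ran through 4403 of its exon bases and was at 43.7 and 80.2 CPM in SCR DMSO, 218 and 244 with MPS1i and 472 and 518 with IFNb. Its log2 fold change was 3.004 ± 0.18 (adjusted p = 2.29e-24) for IFNb and 1.91 ± 0.18 (adjusted p = 2.31e-14) for MPS1i in SCR. Opposite TRIM21, chr11:4385015-4393716 was at 0.666 and 1.16 CPM with DMSO, 9.58 and 9.07 with MPS1i and 22.7 and 24.5 with IFNb in SCR. Opposite TRIM38, chr6:25962604-25983810 was at 1.999 and 3.29 CPM with DMSO, 10.8 and 14.7 with MPS1i and 35.7 and 41.0 with IFNb. Opposite TRIM25, chr17:56888957-56891382 was at 50.3 and 91.99 CPM with DMSO, 128 and 183 with MPS1i and 229.7 and 325 with IFNb, in a region that another gene of that strand overlaps. Opposite TRIM5, chr11:5645684-5685593 was at 14.7 and 22.9 CPM with DMSO, 54.1 and 52.5 with MPS1i and 187 and 188 with IFNb. In each case both SCR IFNb libraries were the highest of the 12.

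Sums were also taken over regions opposite exactly 1 gene that lie in no gene of their own strand. Of the 6 genes, 4 were measured there (TRIM5, TRIM14, TRIM21 and TRIM38). All 4 rose with IFNb and with MPS1i in SCR, where 25.9% and 20.6% of 10775 such sums were called higher. The sum opposite TRIM5 does not hold the region named above for that gene. It had 1 and 3 reads in SCR DMSO, 16 and 17 with MPS1i and 6 and 6 with IFNb. In IFNAR1sg 3 of the 4 genes rose with MPS1i, against 30.9%, and TRIM14 alone with IFNb (1.53 ± 0.22), against 0.575%. The call for IFNb opposite TRIM5 in SCR was lost without SCR DMSO library 1 (1.93, adjusted p = 0.197), SCR IFNb library 1 (2.57, adjusted p = 0.0985) or SCR IFNb library 2 (2.56, adjusted p = 0.106). The MPS1i calls opposite TRIM21 and TRIM38 in IFNAR1sg were lost without IFNAR1sg DMSO library 1 (1.28 and 1.11) or IFNAR1sg MPS1i library 2 (1.17 and 0.78). The interaction for IFNb was called opposite TRIM14 (1.46 ± 0.31), TRIM21 (3.30 ± 0.74) and TRIM38 (3.11 ± 0.60), against 2.82%, and without IFNAR1sg DMSO library 2 the calls for TRIM21 (2.58) and TRIM38 (2.47) were lost. Reads on the opposite strand lay mostly in regions that cover exons of the 6 genes, from 70.8% of them in TRIM5 to 100.0% in TRIM21 and TRIM38. Antisense RNA and exon reads of the gene counted on the wrong strand cannot be told apart.

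**Figure D4:**
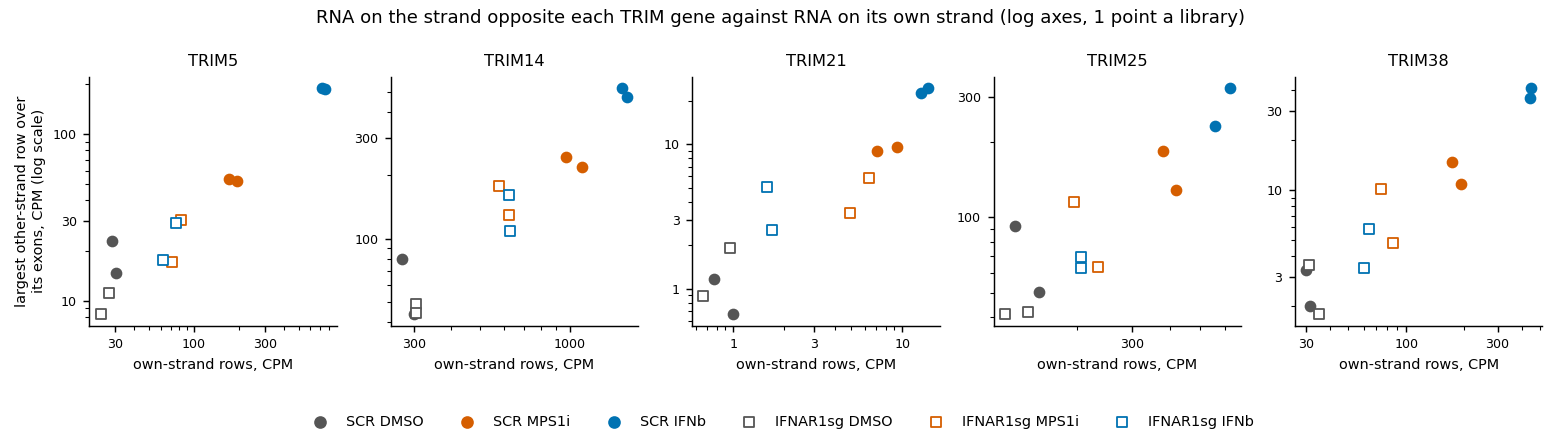
For 5 genes, CPM of the largest other-strand region over the gene's exons (vertical, log axis) against summed CPM of every own-strand region (horizontal, log axis), 1 point a library, with filled circles for SCR and open squares for IFNAR1sg. Both SCR IFNb libraries are at the upper right in each panel; TRIM22 is left out because its opposite strand is the TRIM5 region described above.

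Up to 10000 bases past the 3′ ends, 3 genes had a measurable sum, with 103 reads past TRIM14, 61 past TRIM21 and 48 past TRIM38. With MPS1i in SCR the sums past TRIM21 and TRIM38 were called higher, against 22.9% of all such sums. Past TRIM21 there were 2 and 1 reads in SCR DMSO, 11 and 18 with MPS1i and 2 and 1 with IFNb. Past TRIM38 there were 0 and 1 reads in SCR DMSO, 15 and 14 with MPS1i and 2 and 2 with IFNb, and 5 and 2 with MPS1i in IFNAR1sg. At these depths single reads move the values.

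Among the 61 other TRIM genes in the annotation, 35 were measured. With MPS1i in SCR 12 rose and 8 fell, where 22.2% of all genes were called higher and 21.4% lower. With IFNb 4 rose and 11 fell, where the shares were 7.92% and 38.5%. In IFNAR1sg 8 rose and 6 fell with MPS1i, where 26.8% of all were called higher and 19.3% lower, and with IFNb their median change was -0.17. Their median change was -0.60 for IFNb and 0.49 for MPS1i in SCR. In the sums of every own-strand region 38 were measured, of which 9 rose and 7 fell with IFNb in SCR, with a median of -0.03 against -0.21 over all genes. The 4 that rose with IFNb in SCR in the gene sums were TRIM31 (2.27 ± 0.35), TRIM40 (3.03 ± 0.52), TRIM26 (0.98 ± 0.18) and TRIM56 (1.23 ± 0.28). Their range thus overlapped that of the 6 genes, 1.58 ± 0.19 in TRIM25 to 5.73 ± 0.15 in TRIM5. With MPS1i in SCR the strongest by p were TRIM69 (2.17 ± 0.36), TRIM31 (2.02 ± 0.34), TRIM40 (2.96 ± 0.50) and TRIM55 (3.38 ± 0.59). All 4 rose with MPS1i in IFNAR1sg too, TRIM55 by 3.93 ± 0.58 and TRIM69 by 1.95 ± 0.35. Those that fell with IFNb in SCR included the transcriptional cofactors TRIM24 (-1.37 ± 0.18) and TRIM33 (-1.57 ± 0.19), TRIM27 (-2.05 ± 0.23) and TRIM66 (-2.04 ± 0.25). With MPS1i in SCR TRIM37 (-1.07 ± 0.16), TRIM66 (-1.46 ± 0.21), TRIM24 (-0.89 ± 0.16) and TRIM33 (-0.87 ± 0.17) fell. A list of 10 other TRIM genes linked to interferon, which overlaps the list above except for PML, had 8 measured, of which 6 rose with MPS1i and 4 with IFNb in SCR, where 22.2% and 7.92% of all gene sums did. PML, which scaffolds nuclear bodies and is named here after its values were seen, rose by 3.30 ± 0.17 with IFNb in SCR and 0.96 ± 0.17 in IFNAR1sg.

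Of 6 other TRIM genes on the short arm of chromosome 11, which also carries TRIM5, TRIM22 and TRIM21, 3 were measured as gene sums. TRIM66 fell in SCR, as above. TRIM3 changed by 1.09 ± 0.41 with MPS1i, which was called, and 0.06 ± 0.49 with IFNb, and TRIM68 by 1.04 ± 0.65 and 1.24 ± 0.67 without a call in SCR. TRIM6 and TRIM34, both overlapped by the readthrough gene TRIM6-TRIM34, had no gene sum tested, nor did that gene. Summing every own-strand region measured all 6, of which 4 rose with MPS1i and 2 with IFNb in SCR. With MPS1i in SCR TRIM6 changed by 2.56 ± 0.63, TRIM34 by 1.65 ± 0.66 and TRIM6-TRIM34 by 2.12 ± 0.48, all called. With IFNb TRIM34 (2.11 ± 0.66) and TRIM6-TRIM34 (1.61 ± 0.53) were called and TRIM6 was not (-0.34 ± 1.01). TRIM6-TRIM34 shares reads with TRIM6 and with TRIM34, so these values are not independent.

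Of 34 partners of these proteins in ubiquitin transfer and RNA sensing, 29 were measured. With IFNb in SCR 8 rose and 16 fell, where 7.92% and 38.5% of all gene sums did, and with MPS1i 10 rose and 9 fell, where 22.2% and 21.4% did. In IFNAR1sg 2 rose with IFNb, against 0.642%, and 10 rose and 10 fell with MPS1i, against 26.8% and 19.3%. Over every own-strand region 32 were measured, of which 12 rose and 11 fell with IFNb in SCR. Their median change with IFNb was then 0.18 in place of -0.58, and 5 rose with IFNb in IFNAR1sg, against 1.41%. The genes that rose with IFNb in SCR by the smallest p were USP18, which removes ISG15 (4.50 ± 0.20), RIGI, the RNA sensor that TRIM25 modifies (2.57 ± 0.13), UBE2L6, the ISG15-conjugating enzyme (4.31 ± 0.44), and ISG15 itself (2.34 ± 0.26). USP18 (2.53 ± 0.22) and RIGI (1.38 ± 0.14) were the 2 that rose with IFNb in IFNAR1sg. IRF7, the factor that drives interferon genes, rose by 5.85 ± 0.81 with MPS1i in SCR. The ubiquitin-conjugating enzymes UBE2D2 (-1.75 ± 0.17) and UBE2V2 (-1.61 ± 0.19), SQSTM1 (-1.004 ± 0.13) and TAB2 (-1.16 ± 0.19) fell with IFNb in SCR. The falls named here and for the TRIM genes with IFNb all lay below the median change over all genes, -0.57. With MPS1i in SCR the adaptor MAVS, with which TRIM14 acts, fell (-1.41 ± 0.25), and UBE2V2 (-1.07 ± 0.17), UBE2D2 (-0.88 ± 0.15) and TBK1 (-0.79 ± 0.18) fell there too. Of 8 genes of the interferon receptor and its factors 6 were measured, of which 3 rose with MPS1i in SCR and 2 rose and 2 fell with IFNb, shares to be read against the same percentages of all gene sums.

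The genes whose 5 group means relative to SCR DMSO lay nearest to those of 5 of the 6 genes were found over all 14642 gene sums, by the root mean square difference of log2(CPM + 1). For TRIM5 they were CMPK2, GRIP2 and IFIT1 (difference 0.309 to 0.375), and for TRIM22 MX2, IFIT1 and XAF1 (0.358 to 0.402). For TRIM14 they were HSH2D, PARP12 and SAMHD1 (0.0753 to 0.213), and for TRIM21 ADPRS, SIDT1 and ENSG00000239920 (0.0993 to 0.175). For TRIM38 they were PML, IFI16 and DDX60L (0.140 to 0.247). With 0.5 added in place of 1, the 3 were GRIP2, LAMP3 and IFIT1 for TRIM5, HSH2D, APOL1 and PARP12 for TRIM14 and ADPRS, MOXD1 and SIDT1 for TRIM21, and the same genes as before for TRIM22 and TRIM38. IFIT1, which binds viral RNA, was among the 3 for both TRIM5 and TRIM22 in each case. This is a description over 6 group means, with no test.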

How the data were processed

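RNA bound by the J2 antibody was sequenced from 12 libraries with a stranded kit, 2 in each of 6 groups, per the labels. The authors deposited a table of raw read counts per genomic region with strand, repeat names and coordinates of build hg38. STAR, featureCounts, HOMER, cutadapt, Trimmomatic and Trim Galore were used, per the submitters' processing notes, with settings not given in the sources used here. Every count column belonged to a sample (0 left over). Median region length was 139 bases, and 46.1% of regions had no read. Regions were placed in gene bodies of GENCODE 29 by strand. Gene sums used regions on the strand of exactly 1 gene without exon bases, and other sums are named where used. Counts were tested with edgeR 4.0.16 in R 4.3.3 (quasi-likelihood test, filterByExpr with a minimum count of 10, minimum total of 15 and proportion of 0.7, TMM factors of the fit over regions) over all 12 libraries in 1 fit with 6 residual degrees of freedom. p-values were Benjamini-Hochberg adjusted over all features and called under 0.05. The test was also run on simulated counts with a common spread and changes in SCR IFNb alone. That setting is simpler than these data, so it does not give the error rate here. Alternatives were DESeq2 1.42.0, other scalings, filters and sums, a replicate block and leaving out each library. Promoter letters came from RefSeq GRCh38.p14.

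Named were the 6 genes in every contrast, for each its region with the most reads and that with the smallest p for IFNb in SCR (the same region for all 6), up to 4 other TRIM genes and 4 partners with the smallest p each way, every listed TRIM gene of 11p15, and the 3 genes nearest in pattern (those of TRIM25 are not reported here). The members, lists and tests were chosen with earlier results of these data known. Each ± is an SE taken from the F statistic of the edgeR fit, which includes the fitted spread between these libraries. For the gene sums that spread had 148 prior degrees of freedom, drawn from all sums, against 6 residual ones. The SEs and p-values thus rest mostly on a spread shared over genes and little on each gene's own.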

Additional observations from a re-analysis of the deposited data

Results flagged for a closer look

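The change with treatment differed between SCR and IFNAR1sg, by the interaction term of the edgeR fit, for each of the 6 genes with IFNb and for TRIM5 and TRIM14 with MPS1i. The values below say by how much the log2 change was larger in SCR, with the SE. For IFNb they were 3.72 ± 0.24 in TRIM5, 2.94 ± 0.87 in TRIM21, 2.80 ± 0.38 in TRIM38, 2.51 ± 0.73 in TRIM22, 1.37 ± 0.12 in TRIM14 and 0.79 ± 0.27 in TRIM25. For MPS1i they were 1.39 ± 0.23 in TRIM5 and 0.87 ± 0.12 in TRIM14. Without regions opposite a gene the TRIM14 differences were 0.47 ± 0.25 for IFNb and 0.58 ± 0.25 for MPS1i and were not called. The TRIM5 difference for MPS1i was 0.77 ± 0.32 in regions opposite TRIM22 exons, which was not called. In its clear part it was 0.83 ± 0.23, a call that depended on single libraries. Calls for IFNb in TRIM21, TRIM22 and TRIM25 also depended on single libraries, as given with those genes.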

How the results depend on the processing

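Of the 3325 alternative values computed for these results, 3155 were counted as unchanged. A change of a gene counted so if it stayed on its side of the threshold and, where called, kept its direction. One called in neither fit could turn sign and still count as unchanged. The MPS1i interaction of TRIM22, for one, ran from -0.62 to 0.88 when single libraries were left out. Limited moves in a number of calls also counted as unchanged. Beside the changed values given with the genes above, the IFNb calls in IFNAR1sg numbered 187 gene sums. They were 283 with the contrast's groups alone, 289 with exon-sharing regions and 389 with every own-strand region. IFNAR1sg against SCR in DMSO gave 11, and 1 by DESeq2's Wald test, 4 with 2 groups alone and 19 with exon-sharing regions. The MPS1i interaction gave 202, and 103 by DESeq2. With the median change set to 0, chosen after seeing the data as was the sum of every region, the IFNb interaction gave 3105 in place of 4762 and IFNb against MPS1i 3663 in place of 5790. For TRIM25 IFNb minus MPS1i in SCR turned to 0.57 with exon-sharing or all regions and 0.49 with the median at 0, and was called lower without TMM (-0.49, adjusted p = 0.0140) and with the contrast's groups alone (-0.34, adjusted p = 0.0418); the cause was not tested. Genes of the 6 called for that contrast fell from 4 to 2 without regions opposite a gene, where TRIM14 lost its call and TRIM22 could not be measured. Single regions called by DESeq2 numbered 8475, 18805, 7476 and 273 for MPS1i and IFNb in SCR and then in IFNAR1sg (edgeR 15607, 29429, 15384 and 606), 93, 6063 and 6759 for the MPS1i and IFNb interactions and IFNb against MPS1i (edgeR 56, 10847 and 11238), and member regions for IFNb in IFNAR1sg 5 in place of 8. Without TMM, member regions higher for IFNb against MPS1i were 6 in place of 11, and the clear TRIM5 regions lost the calls for IFNb in IFNAR1sg (0.55) and the MPS1i interaction (0.74, or 0.85 without exon bases). Past the 3′ ends, IFNb against MPS1i gave 1 call, 2 without TMM and 0 within 5000 bases. Leaving out each library in turn gave 78 to 220, 0 to 52 and 126 to 298 gene sums for IFNb in IFNAR1sg, the DMSO contrast and the MPS1i interaction. Member regions were 20 to 31, 10 to 16, 4 to 9, 0 to 1 and 6 to 11 for MPS1i in SCR and IFNAR1sg, IFNb in IFNAR1sg, the DMSO contrast and IFNb against MPS1i. All regions called were, for MPS1i and IFNb in SCR, MPS1i and IFNb in IFNAR1sg, the DMSO contrast, the MPS1i and IFNb interactions and IFNb against MPS1i in turn, 7282 to 16317, 17256 to 30678, 7042 to 16728, 198 to 1042, 11 to 971, 42 to 387, 5491 to 11518 and 5037 to 12062. Opposite-strand genes called were 1 to 3 for MPS1i in IFNAR1sg, 0 to 1 in DMSO and 1 to 3 for the IFNb interaction, and downstream ones 0 to 1 for IFNb against MPS1i. For the clear TRIM5 regions the ranges were 0.59 to 0.71 for IFNb in IFNAR1sg and 0.62 to 1.08 for the MPS1i interaction, 0.72 to 1.21 without exon bases. For the exon-sharing one it was 0.67 to 1.21 with IFNb in IFNAR1sg, opposite TRIM22 0.36 to 1.24 for the MPS1i interaction, and for TRIM22 1.71 to 3.23 for the IFNb interaction. Same-numbered libraries of different groups did not deviate together, with correlations of -0.0491 to 0.0658 over 15 pairs of groups and 14642 gene sums. With the replicate number as a block, 926, 196 and 168 regions were called for IFNb in IFNAR1sg, the DMSO contrast and the MPS1i interaction (606, 69 and 56 without it), and the block left the counts of the 6 genes called in the gene sums the same in all 8 contrasts. Depth limits TRIM21 and TRIM22, with under 20 reads in each DMSO library.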

Other observations

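Repeat names in the regions differed among the genes. Regions that name an Alu element held 70.4% of the own-strand reads of TRIM5, 10.6% of TRIM14, 3.57% of TRIM38 and 0.822% of TRIM25, and no reads of TRIM21 or TRIM22. In TRIM5, 5026 of these 5453 reads lay in the 1 region of 27114 bases opposite TRIM22, which names many repeats. Regions that name no repeat held 98.3% of the reads of TRIM21, 93.4% of TRIM25 and 92.4% of TRIM38, against 2.01% of TRIM14.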
